A study of Homo sapiens with 17 samples.

Results

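The 248 genes described here were the ZNF genes of human chromosome 19, chosen as the entries of the count table whose symbol is ZNF followed by a number and at most 1 letter and whose exons all lie on that chromosome, out of 23368 genes in the table. The same name pattern gave 281 ZNF genes on other chromosomes, and 1369 other genes lay on chromosome 19. Transcripts were measured in HEK293T, a line derived from human embryonic kidney, by sequencing RNA pulled down with an antibody against N4-acetylcytidine (ac4C), a modified base written by the acetyltransferase NAT10. Libraries labelled WT carried no named treatment, and those labelled siTDP43 had received small interfering RNA against TARDBP, which encodes the RNA-binding protein TDP43. From each genotype came input RNA (WT n = 3, siTDP43 n = 3), RNA pulled down with the ac4C antibody (IP; WT n = 3, siTDP43 n = 3), and RNA pulled down with IgG as the control (WT n = 2, siTDP43 n = 3). All of it was poly(A) RNA from 1 cell line. Neither a control siRNA in the WT cells nor separate cultures behind the replicate numbers were given in the labels, so the p-values measure only the spread between these samples, which may be technical.

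Most ZNF genes of chromosome 19 encode tandem C2H2 zinc fingers that read DNA, many of them behind a KRAB domain. KRAB recruits TRIM28, which brings the histone methyltransferase SETDB1 and heterochromatin proteins, and these factors are known for silencing transposable elements. The genes stand in clusters that grew by local duplication, so neighbours resemble each other, and most are expressed at low levels.

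The repeated part of these genes is the stretch that links 1 finger to the next. Searched on the sense strand of the exons, as the codons of the conserved H/C linker that joins neighbouring fingers, with any base at each wobble position, it was found in 213 of the 248 genes (85.9%), compared with 66.2% of the other ZNF genes, 1.39% of the other chromosome 19 genes and 2.35% of all genes. The median gene held 6 matches and the richest 25. Of 1216 distances between successive matches, 64.1% were 84 bases, the length of 1 finger with its linker, and 21.0% were 168 bases. The sequences that follow are shown for ZNF234 and ZNF226, a neighbouring pair that the results turn on, as examples of the most alike repeats of the pair. They come from GRCh37 (hg19), plus strand, with the linker in capitals. The first pair and the last pair are identical between the genes, and the middle pair is not. At this length, every other linker context of ZNF234 and ZNF226 occurred in 1 gene only.
ZNF234, chr19:44661344-44661373: gagtccacACTGGAGAGAAGCCatacaaat
ZNF226, chr19:44680899-44680928: gagtccacACTGGAGAGAAGCCatacaaat
ZNF234, chr19:44661596-44661625: tgatccatACCGGTGAGAAACCatacaaat
ZNF226, chr19:44681151-44681180: tgatccatACGGGTGAGAAACCatacaaat
ZNF234, chr19:44662016-44662045: gtgtccacACAGGAGAGAAACCatacaaat
ZNF226, chr19:44681571-44681600: gtgtccacACAGGAGAGAAACCatacaaat

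Across the whole exons, 1.67% of the 50-base stretches of ZNF234 and 0.69% of those of ZNF226 recurred in another gene's exons. The median over the 248 genes was 1.10%, and 28 genes exceeded 10%, so their counts are less certain. As many as 18 had exons that overlap a second gene. The most common linker context, shown because it is shared most widely, occurred at 47 sites in 20 of the genes.
Shared linker: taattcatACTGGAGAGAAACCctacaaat

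In base composition the genes stood apart from their chromosome. The median exon GC content was 42.6%, compared with 59.6% for the other genes of chromosome 19, 45.2% for the other ZNF genes and 49.5% for all genes. Their median exon length was 3129 bases. In the GENCODE annotation 239 were protein coding.

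WT input libraries held 27718784 to 36583436 counts, the WT IP ones 19615316 to 21066215, and those of WT IgG 9022250 to 9466855. After the knockdown the input totals lay between 24542434 and 31030950, the IP totals between 8610070 and 15736165, and the IgG totals between 3013989 and 3436811. IgG libraries were thus the shallowest, and low genes were the least reliable there. TARDBP fell from 153 ± 3.95 to 102 ± 3.67 CPM (counts scaled to a common library size; SD, n = 3 each) between the inputs, by 0.57 ± 0.05 (SE) on the log2 scale (edgeR, adjusted p = 6.55e-13), a partial loss. VIM, KRT8, KRT18 and NEFM, transcripts known in this line, were present in every library, whereas PTPRC, CDH5 and HBB had no count in any input and ALB and PAX8 at most 4. Of the other markers, INA, LHX1 and PAX2 were low in the inputs, and COL1A1 and GFAP were present there, with 7.34 and 1.47 CPM in WT input. GFAP, an astrocyte marker, stood at 15 to 21.8 CPM in siTDP43 IgG, beside at most 4 counts in WT IgG. HBB had no count in the WT libraries or in siTDP43 input, 0.747 to 2.23 CPM in siTDP43 IP and 7.12 to 9.71 CPM in siTDP43 IgG. Since the methods add a transcribed mouse beta-globin probe to the RNA before the pull-down, HBB is no check of cell type here, and whether the probe gave these counts was not tested. WT IgG held up to 26 counts of ALB and 10.8 CPM of LHX1 on average, whereas siTDP43 IgG had none of either. The part of other RNA in the IgG values was not tested. VIM and KRT8 differed between the inputs by -1.58 and -2.30 (log2), and the part that such a general difference had in these results was not tested.

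All 248 genes together held little of the RNA, and their share depended on both genotype and pull-down. The summed share of counts was 0.127% ± 0.0016 in WT input, 0.184% ± 0.0058 in WT IP and 0.173% ± 0.0064 in WT IgG (SD). It was 0.143% ± 0.0019 in siTDP43 input, 0.104% ± 0.00045 in siTDP43 IP and 0.103% ± 0.0051 in siTDP43 IgG. The 3 WT IP libraries therefore lay above every WT input library, and the 3 siTDP43 IP libraries below every siTDP43 input library. A sum is weighted to the genes with the most counts and does not describe the typical gene. ZNF580 alone had 722, 788 and 623 counts in WT input and 3579, 3300 and 3147 in WT IP. Of 186 genes tested, 46 were called higher and 63 lower in WT IP than in WT input, with a median log2 value of -0.24. In bulk RNA, fewer cells with a transcript and less transcript per cell cannot be told apart.

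**Figure D1:**
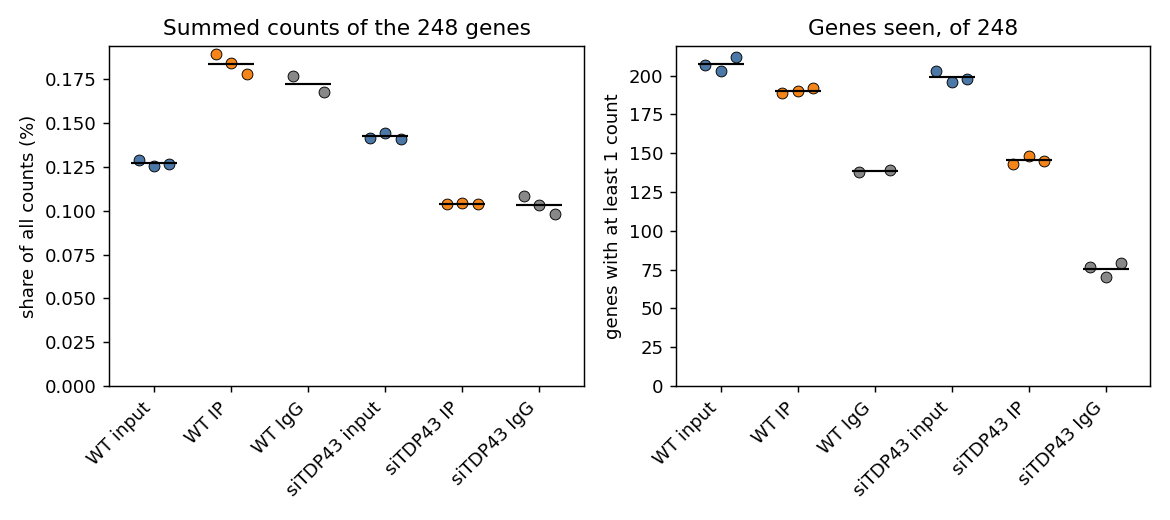
Share of all counts held by the 248 genes (left, %) and the number of them with at least 1 count (right) in each of the 17 libraries; points are libraries, lines group means. WT IP lies above WT input and siTDP43 IP below siTDP43 input, and the number of genes seen falls from 203 to 212 in WT input to 70 to 79 in siTDP43 IgG. Over all genes in the table (not drawn) it falls from 16122 to 16351 in WT input to 10247 to 10382 in siTDP43 IgG.

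Fewer of the genes were seen in the pull-downs than in input. In WT input 203 to 212 of the genes had a count, in WT IP 189 to 192, and in WT IgG 138 or 139. In the siTDP43 cells the ranges were 196 to 203, 143 to 148 and 70 to 79. All siTDP43 IgG libraries had no count at 157 of the genes, compared with 84 in WT IgG and 29 in WT input. At most 3 counts in every library were seen for 69.4% of the genes in siTDP43 IgG (55.6% of all genes in the table) and 46.8% in WT IgG (44.5%). In siTDP43 IP the share was 41.9% (44.3% of all genes). It was already 16.1% in WT input (30.7%) and 20.2% in siTDP43 input (33.2%), so part of these genes were near the floor before any pull-down. IgG and siTDP43 IP values were therefore at the floor for many of these genes, as for many genes of the table. In all, 17 had no count anywhere, 176 passed the filter on low counts in the inputs, 186 in the WT fit, 159 in the siTDP43 fit and 190 in the fit of all libraries.

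Levels between genes were compared per length, as FPKM (the CPM divided by exon length in kilobases). In WT input 96 genes reached a mean of 1 FPKM and 5 reached 10. The highest was ZNF581, a short non-KRAB gene, with 45.5 ± 3.17 FPKM (SD, n = 3). ZNF146, which encodes a protein made almost only of fingers, followed with 30.1 ± 0.82, and its exons overlap ZNF565. ZNF580, the immediate neighbour of ZNF581, had 13.1 ± 1.97, ZNF576 had 11.4 ± 0.44 and ZNF428, whose exons overlap SRRM5, had 11.2 ± 0.65. Neighbours ZNF576 and ZNF428 in this order did not differ beyond their spread. The median over the 248 genes was 0.57 FPKM in WT input and 0.81 in siTDP43 input. Of the 5 highest genes, 4 had no linker match and a GC content of 54.0% to 64.5%, unlike the typical ZNF gene here.

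The inputs compare the transcript levels of cells with and without the knockdown. More of the genes were higher after the knockdown than lower: 93 of the 176 tested rose (52.8%, beside 38.6% of all genes tested) and 44 fell (25.0%, beside 40.6%). Their median log2 fold change was 0.43, beside -0.05 over all genes tested. ZNF genes of other chromosomes had 111 higher and 62 lower of 244 (median 0.23), while other chromosome 19 genes had 135 higher and 500 lower of 794 (median -0.68). The ZNF genes and the rest of their chromosome thus had medians of opposite sign. With most genes of the table called in one direction or the other, a call by itself was common.

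The largest rise was that of ZNF114, with 0.398, 0.792 and 0.743 CPM in WT input and 13.5, 13.0 and 14.1 CPM in siTDP43 input. No library of one group came near the other, and the log2 fold change was 4.36 ± 0.19 (SE, adjusted p = 4.17e-19). ZNF701 rose from 0.398, 1.12 and 1.09 CPM to 4.94, 5.21 and 4.2 (log2 2.43 ± 0.27, adjusted p = 2.01e-09). ZNF382, a KRAB gene known as a repressor silenced in several tumours, rose from 0.929, 0.817 and 0.743 CPM to 3.58, 3.63 and 5.05 (log2 2.31 ± 0.26). Each of these genes was low in WT input, so the absolute gain was small next to genes such as ZNF581. ZNF234 rose from 1.59, 2.68 and 2.97 CPM to 8.37, 7.73 and 7.86 (log2 1.72 ± 0.19, adjusted p = 1.06e-09), without overlap.

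Among the genes that fell, ZNF580 dropped from 24.0, 20.1 and 17.8 CPM to 1.36, 2.37 and 1.67 (log2 -3.53 ± 0.16, adjusted p = 7.92e-19). Its libraries were far apart between the groups, although ZNF581, the next gene downstream, differed by -0.29 ± 0.07. That smaller difference turned to 0.38 once the trend with GC content was removed, whereas the one of ZNF580 stayed between -3.76 and -2.56 in 16 alternative fits. ZNF577 fell from 2.92, 2.43 and 2.31 CPM to 0.602, 0.434 and 0.285 (log2 -2.50 ± 0.35). ZNF675, which encodes a finger protein that binds the signalling adaptor TRAF6, fell from 7.0, 5.90 and 6.97 CPM to 1.52, 1.18 and 1.21 (log2 -2.32 ± 0.20, adjusted p = 7.45e-12). For both, every siTDP43 library lay below every WT library.

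ZNF226 barely differed in the inputs, with 16.9, 18.9 and 19.5 CPM in WT and 22.4, 21.7 and 19.3 CPM in siTDP43. The groups overlapped, and the log2 difference was 0.21 ± 0.09 (adjusted p = 0.0395). The call was lost in 9 of 16 alternative fits: the adjusted p was 0.189 and 0.0623 without WT input replicate 1 or 2 and 0.111 and 0.101 without siTDP43 input replicate 1 or 2, and the value was -0.05 after removal of the GC trend.

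The direction differed between groups of neighbours. Taken as runs of genes whose starts lie within 500 kb of each other, the 22 genes from ZNF575 to ZNF180 (chr19:44037340-45004574), the run that holds ZNF234 and ZNF226, had 14 of 18 tested genes higher and 1 lower, with a median log2 change of 1.05. The 14 genes from ZNF414 to ZNF846 had 7 of 10 higher (median 0.66). In contrast, the 17 genes from ZNF628 to ZNF835 (chr19:55987699-57183123) had 1 of 12 higher and 7 lower (median -0.58), and the 34 genes from ZNF101 to ZNF254 had 5 of 15 higher and 8 lower (median -0.65). Composition differed between the runs: the median GC content was 43.2% from ZNF575 to ZNF180, 61.7% from ZNF628 to ZNF835 and 37.2% from ZNF101 to ZNF254. These runs were described without a test, and the part of GC content was not tested.

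**Figure D2:**
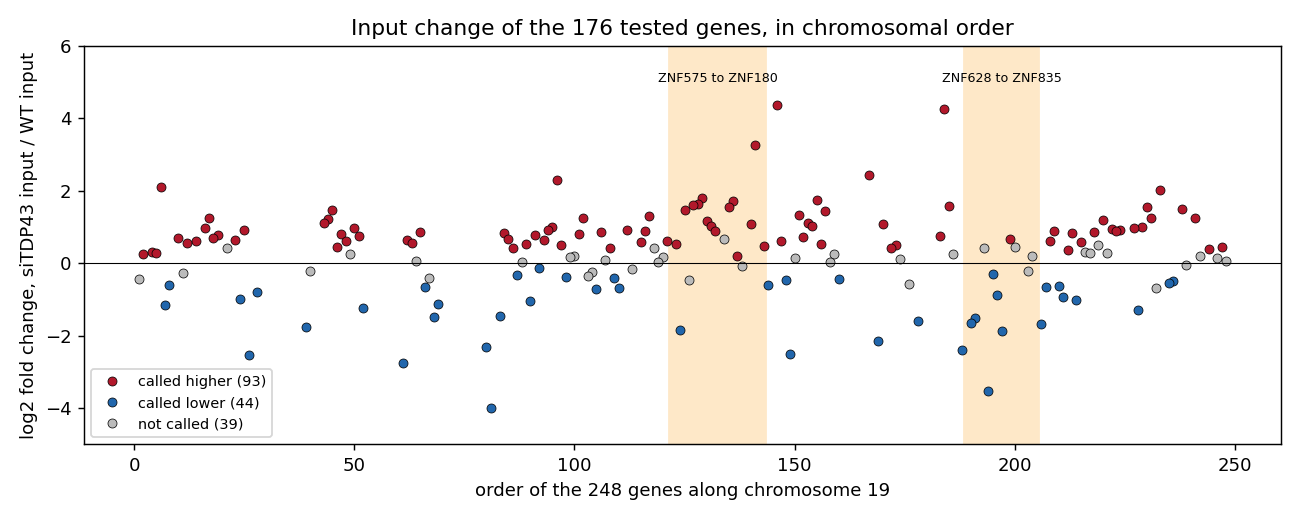
Log2 fold change of siTDP43 input over WT input for the 176 tested genes, placed by their order along chromosome 19; red points were called higher (93), blue lower (44) and grey not called (39), and shaded bands mark 2 runs of neighbours. The band from ZNF575 to ZNF180 holds 14 red points and 1 blue, the band from ZNF628 to ZNF835 holds 1 red and 7 blue.

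Split at a GC content of 50%, a line drawn with the values known, the 148 tested genes below it were higher in 58.1% and lower in 21.6%, and the 28 above it higher in 25.0% and lower in 42.9%. All genes tested showed the same ordering, with 49.0% higher and 30.1% lower below the line, and 27.0% and 52.2% above it.

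The comparison of WT IP with WT input asks which transcripts the ac4C antibody enriched. Of 186 genes tested, 46 were called higher in the IP (24.7%, beside 30.2% of all genes tested) and 63 lower (33.9%, beside 27.3%). In pull-downs a call asked for more than a 2-fold difference besides an adjusted p below 0.05. The median log2 value was -0.24, beside 0.01 over all genes. With the GC trend removed, the median was 0.18 (all genes -0.06) and the counts 58 higher and 50 lower. Below 50% GC, 19.4% of the genes were higher and 38.1% lower, close to the 19.2% and 38.0% of all genes with that composition. Above it, 51.6% were higher and 12.9% lower, beside 41.7% and 16.1%.

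ZNF579, a GC-rich gene of the run from ZNF628 to ZNF835, went from 0.929, 0.664 and 0.886 CPM in input to 41.5, 38.9 and 43.5 CPM in IP (log2 5.66 ± 0.15, adjusted p = 1.62e-20). ZNF653, whose exons overlap ECSIT, had 0, 0 and 0.114 CPM in input and 5.96, 4.83 and 5.5 CPM in IP. ZNF137P, a transcribed pseudogene, had 0.066, 0.051 and 0.286 CPM in input and 6.96, 6.43 and 5.28 CPM in IP (log2 5.49 ± 0.43, and 5.05 to 6.63 with 1 library left out). With 2, 2 and 10 input counts it passed the filter on low counts through its IP values. In each, the IP libraries lay above every input library.

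At the other end, ZNF416 had 4.31, 3.88 and 3.54 CPM in WT input and no count in any WT IP library, at least 30.9-fold lower against 3 counts in each IP library. ZNF211 had 6.47, 5.08 and 4.17 CPM in input and 0.248, 0 and 0 CPM in IP (log2 -5.86 ± 0.53, fitted as -9.99 without WT IP replicate 1, the library that holds all its IP counts). ZNF420, a KRAB gene known as a regulator of p53, had 8.99, 11.3 and 11.5 CPM in input and 0.166, 0.819 and 0.355 CPM in IP (log2 -4.54 ± 0.31, adjusted p = 3.11e-12). Input and IP did not overlap for any of these genes.

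A larger share of these genes than of all genes was lower in the IgG pull-down than in input. WT IgG against WT input had 37 of 186 genes higher (19.9%, beside 24.4%) and 101 lower (54.3%, beside 36.6%). Over the 125 genes with no group at or under 3 counts in every library, 37 were higher (29.6%, beside 28.6% of all genes left in the same way) and 46 lower (36.8%, beside 28.3%). Leaving out genes at the floor removes those with the largest differences, so these counts, here and for the other comparisons, describe the remaining genes only. ZNF genes of other chromosomes had 43.7% lower in this comparison. ZNF749 had 20.9, 20.5 and 19.8 CPM in input and 0 in both IgG libraries, at least 68.8-fold lower. ZNF567 (at least 57.1-fold lower) and ZNF77 (at least 43.9-fold lower) had 16.9, 15.6 and 18.2 CPM and 14.1, 12.7 and 12.2 CPM in input and no count in WT IgG either. The reverse held for ZNF587, which rose from 2.45, 3.19 and 4.06 CPM in input to 141 CPM in both IgG libraries (log2 5.49 ± 0.13), although 23.8% of its 50-base stretches recur elsewhere. ZNF787, with a GC content of 70.3%, went from 2.26, 2.61 and 2.63 CPM to 53.8 and 52.6 CPM (log2 4.45 ± 0.11), and ZNF653 also stood higher in IgG, with 2.31 and 1.62 CPM.

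With IgG as the control, most of the tested genes were higher in IP. In WT, 108 of 186 genes were higher in IP than in IgG (58.1%, beside 35.2%) and 40 lower (21.5%, beside 17.8%), with a fitted median of 1.76 beside 0.29 for all genes. ZNF genes of other chromosomes had 44.1% higher. Under limma on log2(FPKM + 1) the share of higher genes was 25.3%, beside 22.5% of all genes. Of the 186, however, 61 had at most 3 counts in each IgG library. With every such group set to 3 counts per library the median was 1.43, beside 0.29. Over the 123 genes with no group at that level the median was 0.52 (all genes 0.02). Of these, 54 were higher (43.9%, beside 26.5% of all such genes) and 38 lower (30.9%, beside 20.3%). The run from ZNF565 to ZNF573 had 22 of 26 genes higher, and 14 of the 26 had no count in WT IgG.

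ZNF234 had the largest fitted rise, with 12, 14.5 and 14 CPM in WT IP and no count in either WT IgG library, at least 45.6-fold higher. ZNF333 had 6.71, 7.99 and 6.74 CPM in IP and ZNF749 had 6.17, 4.59 and 5.54 CPM, and both had no count in IgG, so they were at least 24.1-fold and 18.4-fold higher. ZNF226 had 21.9, 19.9 and 18.6 CPM in IP and 0.192 and 0.405 CPM in IgG (log2 6.03 ± 0.31, adjusted p = 2.25e-14). ZNF226 was not called different between IP and input (log2 0.14 ± 0.11, adjusted p = 0.258), and the same holds for ZNF333 (0.27 ± 0.17, adjusted p = 0.158). ZNF226 and ZNF333 thus had a large ratio to IgG with no call over input, whereas ZNF234 was also called higher over input.

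Higher in IgG than in IP were ZNF440, with 1.16, 0.655 and 1.95 CPM in IP and 19.7 and 31.1 CPM in IgG (log2 -4.39 ± 0.29), and ZNF181, with 0.662, 0.573 and 0.266 CPM against 5.86 and 6.48 CPM (log2 -3.64 ± 0.31). ZNF805 had 4.43, 2.17 and 3.73 CPM in IP and 40.4 and 42.0 CPM in IgG (log2 -3.62 ± 0.21, adjusted p = 1.28e-13). Here IgG lay above every IP library.

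**Figure D3:**
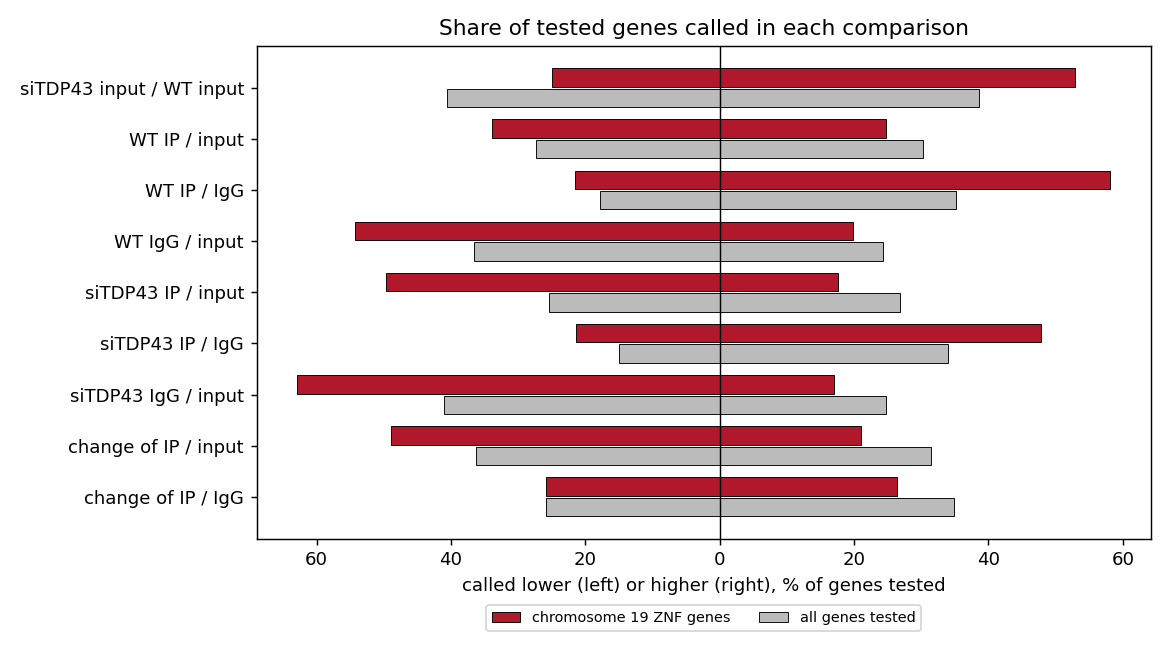
Percent of tested genes called higher (right of 0) or lower (left of 0) in each of the 9 comparisons, for the chromosome 19 ZNF genes (red) and for all genes tested (grey); the last 2 rows are the change of IP enrichment, siTDP43 minus WT. In the siTDP43 over WT inputs 52.8% of the ZNF genes were higher beside 38.6% of all genes, and 62.9% were lower in siTDP43 IgG than in input beside 41.0%.

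A transcript was counted as ac4C(+) when the IP was called higher over both input and IgG. In WT this held for 29 of 186 genes (15.6%, beside 15.6% of all genes tested), of which 10 had at most 3 counts in each IgG library. In siTDP43 it held for 12 of 159 (7.55%, beside 10.3%), 8 of them with IgG at that level. The ZNF genes were thus as often ac4C(+) in WT as genes in general. ZNF264, ZNF554 and ZNF837, named because they were the 3 shared genes and so chosen with their values seen, made up 10.3% of those called in WT and 25.0% of those called in siTDP43, beside 16.1% and 28.2% over all genes. Of the 29 WT genes, 17 were tested in siTDP43.

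ZNF554 was the clearest of these, with 1.59, 1.23 and 1.2 CPM in WT input, 4.51, 4.30 and 4.35 CPM in WT IP, and 0.577 and 0 CPM in WT IgG. After the knockdown it had 1.14, 1.03 and 0.783 CPM in input, 15.8, 15.7 and 16.1 CPM in IP, and 0.735, 1.62 and 4.27 CPM in IgG. Its IP exceeded input and IgG in every library of both genotypes (log2 over input 1.72 ± 0.30 in WT and 4.15 ± 0.32 in siTDP43). The change of IP over input was 2.28 ± 0.44 (adjusted p = 2.64e-05), upwards.

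After the knockdown, the IP held fewer of these transcripts relative to input. In siTDP43, 28 of 159 genes were higher in IP than in input (17.6%, beside 26.8%) and 79 lower (49.7%, beside 25.4%), with a median of -1.01 beside -0.09 over all genes. Set to 3 counts where a group was at the floor, the median was -1.19. Without such genes, 28 of 138 were higher (20.3%, beside 27.5% of all such genes) and 58 lower (42.0%, beside 22.8%). Below 50% GC, 11 of 130 genes were higher (8.46%, beside 18.8% of all genes of that composition) and 72 lower (55.4%, beside 30.8%). Above it, 17 of 29 were higher (58.6%, beside 35.9%) and 7 lower (24.1%, beside 19.3%). Among ZNF genes of other chromosomes, 35.5% were lower in this comparison.

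ZNF784 rose from 0.254, 1.03 and 0.854 CPM in siTDP43 input to 28.7, 26.7 and 23.3 CPM in IP (log2 5.39 ± 0.28, adjusted p = 9.61e-14), but IgG held 30.1, 26.7 and 28.5 CPM, so IP and IgG overlapped. ZNF428 likewise had 5.10, 3.75 and 4.13 CPM in input, 85.0, 59.5 and 54.9 CPM in IP and 43.4, 46.1 and 43.8 CPM in IgG. ZNF444, a GC-rich SCAN-domain gene, had 1.33, 3.0 and 2.7 CPM in input and 90.4, 100.3 and 70.5 CPM in IgG (log2 5.46 ± 0.22), above its 37.8, 28.8 and 34.6 CPM in IP. ZNF787 also rose in IgG, from 1.77, 0.868 and 1.39 CPM to 26.5, 28.3 and 28.1 CPM (log2 4.57 ± 0.28). In siTDP43 these GC-rich genes were thus high in IgG as well.

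The opposite pattern was seen in 4 genes of a tight stretch of 6, from ZNF350 to ZNF616 (chr19:52467593-52643191), picked with its values seen. It was not particular to the stretch. Of the 159 genes tested, 21 had at most 3 counts in every siTDP43 IP library, beside 495 of 12746 over all genes tested. ZNF443 and ZNF345, in other runs, also had no count in siTDP43 IP. ZNF350, which encodes a KRAB protein known as a partner of BRCA1, had 5.58, 3.63 and 4.13 CPM in siTDP43 input, no count in any siTDP43 IP library, and 16.9, 13.8 and 15 CPM in siTDP43 IgG. It was at least 14.8-fold lower in IP than in input and at least 50.6-fold lower than in IgG. ZNF616 had 7.32, 6.27 and 7.97 CPM in input, no count in IP (at least 23.9-fold lower), and 1.47, 0 and 2.85 CPM in IgG. ZNF841 had 4.47, 4.02 and 3.49 CPM in input and no count in IP (at least 13.3-fold lower), and ZNF615 had 8.59, 6.35 and 7.83 CPM in input and 0.149, 0 and 0 CPM in IP. The other 2 genes of the stretch did not vanish: ZNF614 had 12, 18 and 18 counts in siTDP43 IP and ZNF432 had 8, 4 and 10. In WT IP the 4 vanishing genes had 28 to 100 counts in every library.

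Against IgG, 76 of the 159 genes were higher in siTDP43 IP (47.8%, beside 34.0%) and 34 lower (21.4%, beside 15.0%). ZNF genes of other chromosomes had 47.4% higher, and limma on log2(FPKM + 1) put the share of the chromosome 19 genes at 20.8%, beside 23.2% of all genes. As many as 87 of the 159 had at most 3 counts in each siTDP43 IgG library. Over the 63 genes with no group at that level the median was -0.67 (all genes 0.04). Of these, 12 were higher (19.05%, beside 23.5% of all such genes) and 24 lower (38.1%, beside 17.3%). The larger share of higher genes was thus not seen in these 63. Over the 159 genes the fitted median was 2.51, and 0.24 with groups at the floor set to 3 counts. In siTDP43 IgG against input, 27 were higher (beside 24.7% of all genes tested) and 100 lower (62.9%, beside 41.0%), and ZNF genes of other chromosomes had 58.5% lower. The 72 genes without a group at the floor had 27 higher (37.5%, beside 30.5% of all such genes) and 14 lower (19.4%, beside 29.1%).

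ZNF226 had 31.3, 35.5 and 33.4 CPM in siTDP43 IP and no count in siTDP43 IgG, at least 29.6-fold higher. ZNF333 had 23.7, 25.1 and 20.2 CPM in IP and ZNF302 had 12.1, 12.5 and 9.84 CPM, both without a count in IgG (at least 20.4-fold and 10.2-fold higher), although 10.9% of the 50-base stretches of ZNF302 recur elsewhere. ZNF614, with 22.1, 19.5 and 17.8 CPM in siTDP43 input, was also absent from siTDP43 IgG, at least 17.6-fold lower. In the siTDP43 IgG libraries 3 counts stand for 1.13 CPM on average.

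The change of IP enrichment between genotypes was tested in 1 fit of all 17 libraries. Relative to input, enrichment fell after the knockdown for 93 of 190 genes (48.9%, beside 36.3% of all genes tested) and rose for 40 (21.1%, beside 31.5%), with a median change of -1.02 beside -0.19. ZNF genes of other chromosomes had 45.9% lower and 25.2% higher. With groups at the floor set to 3 counts the median was -0.68 (all genes -0.07). Over the 140 genes without such a group 58 fell (41.4%, beside 34.9% of all such genes) and 36 rose (25.7%, beside 36.2%). The 41 genes from ZNF175 to ZNF331, the run that holds the stretch from ZNF350 to ZNF616, had 18 of 27 lower and 2 higher (median -2.91).

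ZNF616 had 3.89, 4.10 and 3.28 CPM in WT IP beside 2.92, 2.91 and 2.14 CPM in WT input, and its change of enrichment was at most -5.08 (log2, adjusted p = 3.24e-11). For ZNF841, with 3.39, 3.28 and 4.44 CPM in WT IP, the change was at most -4.14. ZNF83, further along the same run, had 10.9, 15 and 10.5 CPM in WT IP and no count in either siTDP43 pull-down, and its change was at most -3.21. Its input also fell, from 6.17, 6.28 and 6.89 CPM to 0.887, 1.89 and 1.64.

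The gains named here were those with the largest change. ZNF559, whose exons overlap the read-through gene ZNF559-ZNF177, had 1.16, 0.655 and 0.355 CPM in WT IP and 9.75, 11.4 and 15.9 CPM in siTDP43 IP, with inputs of 9.94 to 11.9 and 13.4 to 18.5 CPM. Its change over input was 3.51 ± 0.38 (adjusted p = 2.22e-10), but siTDP43 IgG held 15.4, 29.9 and 22.1 CPM. ZNF420 went from 0.166, 0.819 and 0.355 CPM in WT IP to 2.98, 5.07 and 4.48 CPM in siTDP43 IP (change 3.43 ± 0.46). ZNF416, absent from WT IP, had 2.83, 1.01 and 1.74 CPM in siTDP43 IP, a change of at least 2.7 on the log2 scale, although limma on log2(FPKM + 1) gave -0.06.

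Relative to IgG, 50 of 190 genes gained enrichment (26.3%, beside 34.9%) and 49 lost it (25.8%, beside 25.9%). DESeq2 called 46 higher (24.2%, beside 32.9%) and 69 lower (36.3%, beside 35.8%). Where every group lay above the floor (54 genes), 13 gained (24.1%, beside 41.8% of all such genes) and 27 lost (50%, beside 33.8%). Of the 159 genes tested in both genotypes, 42 were called higher over IgG in both, 6 lower in both, 22 higher in WT and lower in siTDP43, and 22 the other way round. Over input the same counts were 17, 37, 5 and 2. So 44 genes turned direction against IgG (27.7%, beside 11.9% of all genes tested in both genotypes) and 7 against input (4.40%, beside 3.70%). Among the IP and IgG groups of the 159 genes, 106 genes had at least 1 at the floor. In siTDP43 IgG alone 87 of the 159 were there, beside 2558 of 12746 over all genes tested in siTDP43. The shares against IgG thus do not compare like genes, and how many of the 44 rest on such a group was not counted.

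**Figure D4:**
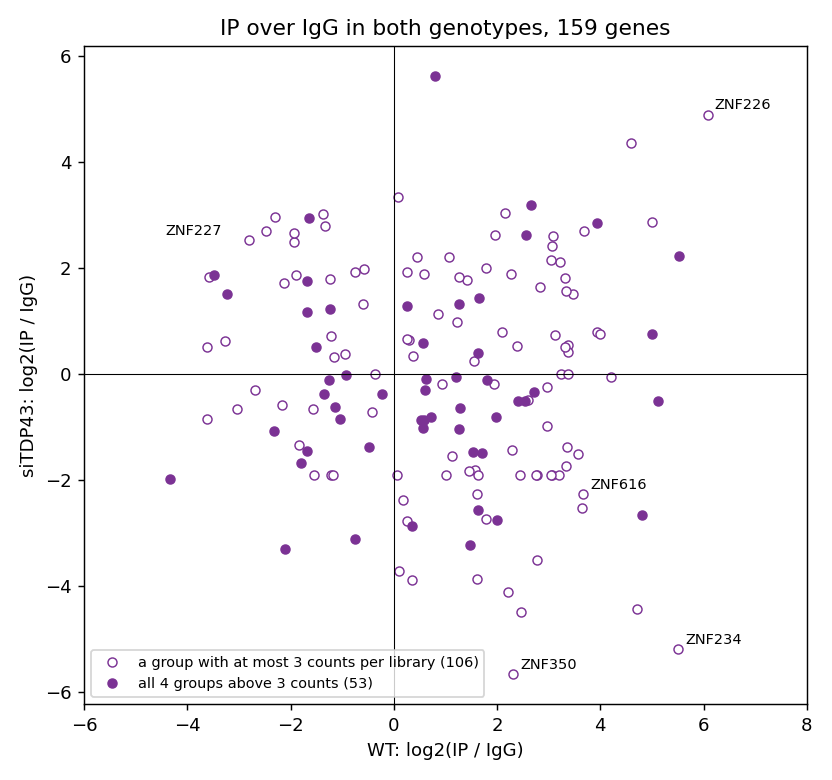
Log2 ratio of mean CPM in IP over IgG in WT (horizontal) and siTDP43 (vertical) for the 159 genes tested in both genotypes, with any group of at most 3 counts in every library set to 3 counts per library. Open points (106) have such a group among the 4, filled points (53) do not, and ZNF234, ZNF350 and ZNF616 lie in the lower right quadrant, ZNF227 in the upper left.

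The adjacent KRAB genes ZNF234 (chr19:44645710-44664462), ZNF226 (chr19:44669215-44681838) and ZNF227 (chr19:44716691-44741421), all on the plus strand, had 3 different patterns. For ZNF234, IP exceeded input in WT (2.47 ± 0.20 on the log2 scale, adjusted p = 1.08e-10) and was below it in siTDP43, with 1.64, 0.406 and 1.74 CPM in IP beside an input of 7.73 to 8.37 CPM (-2.49 ± 0.31). IgG did the reverse, with no count in WT and 39.0, 46.1 and 53.4 CPM in siTDP43. Its change of IP enrichment was -5.11 ± 0.38 over input (adjusted p = 3.35e-14) and at most -10.70 over IgG.

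ZNF226 kept its IP above or level with input in both genotypes. IP over input was 0.82 ± 0.15 in siTDP43, under the fold needed for a call, and the change from WT was 0.53 ± 0.19 (adjusted p = 0.0147), a call lost with scaling by total counts (0.23, adjusted p = 0.307) and with limma. WT IgG held 2 and 4 counts of ZNF226 and siTDP43 IgG none, so its change over IgG has no usable bound. ZNF234 and ZNF226 held 12 and 11 linker matches, and their pull-down values went separate ways.

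ZNF227 had nearly equal inputs, 15.3, 16.1 and 15.5 CPM in WT and 15.2, 14.5 and 14.4 CPM in siTDP43 (log2 -0.08 ± 0.10, adjusted p = 0.449). In IP it had 5.96, 6.59 and 6.03 CPM in WT and 9.08, 3.85 and 6.47 CPM in siTDP43. IgG held 55.4 and 31.8 CPM in WT and no count in siTDP43, the mirror image of ZNF234. Its change of IP over IgG was at least 5.33 on the log2 scale (adjusted p = 4.16e-13), whereas that over input was 0.18 ± 0.29 (adjusted p = 0.609). For ZNF227 the difference between genotypes thus lay in IgG.

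**Figure D5:**
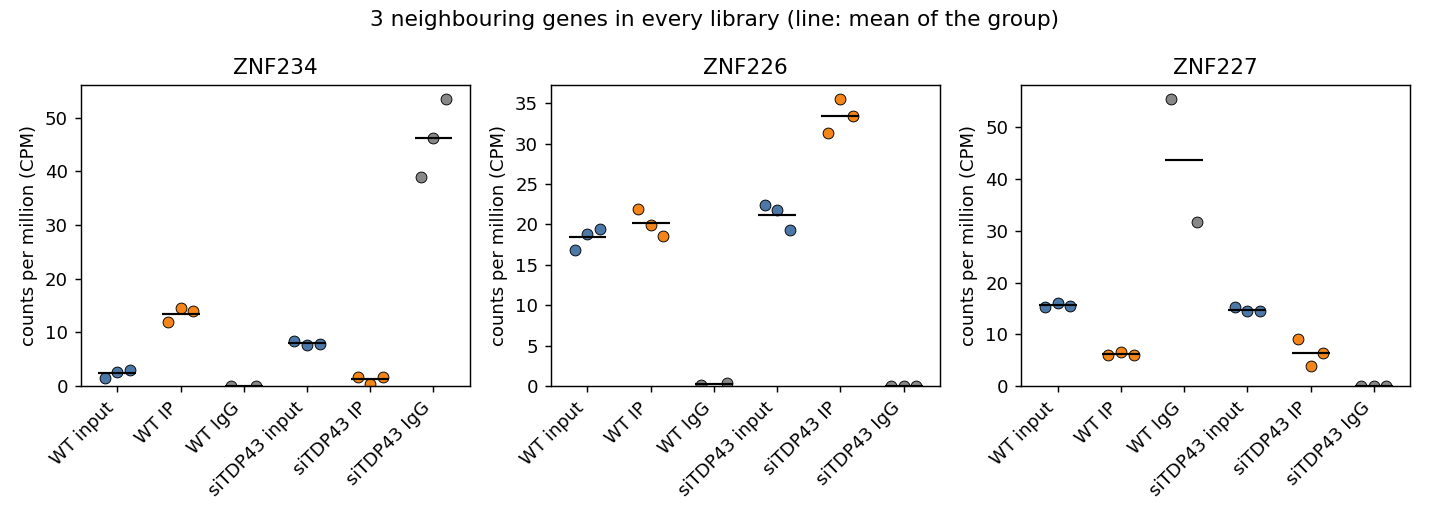
CPM of the neighbours ZNF234, ZNF226 and ZNF227 in all 17 libraries; points are libraries (blue input, orange IP, grey IgG) and lines group means. In IgG, ZNF234 has 0 CPM in WT and 39.0 to 53.4 in siTDP43, ZNF227 has 31.8 to 55.4 in WT and 0 in siTDP43, and ZNF226 has at most 0.405 in either.

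The same mirror image was seen in ZNF805, whereas ZNF708 was low in WT IgG and differed in IP as well. ZNF805 had IP values of 2.17 to 4.43 CPM in WT and 2.84 to 5.5 CPM in siTDP43, but its 40.4 and 42.0 CPM in WT IgG gave way to no count in siTDP43 IgG, a change of at least 5.42. ZNF708 had 1.92 and 2.83 CPM in WT IgG and none in siTDP43 IgG, and its IP rose too, from 0.414, 0.246 and 0.621 to 7.96, 6.08 and 7.97 CPM. Its change was 3.23 ± 0.49 over input (adjusted p = 5.03e-07) and at least 5.18 over IgG.

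The factors through which KRAB proteins act moved in both directions between the inputs. Of 18 cofactor genes, 10 rose (55.6%, beside 38.6% of all genes tested) and 4 fell (22.2%, beside 40.6%). The median log2 value was 0.42, beside -0.05 over all genes. TRIM28, the corepressor that KRAB binds, fell from 83.1 ± 1.69 to 31.0 ± 1.28 CPM (SD, n = 3 each; log2 -1.42 ± 0.06, adjusted p = 4.25e-20). SETDB1 rose by 0.34 ± 0.07, CBX3 by 1.06 ± 0.05, HDAC1 by 1.52 ± 0.04 and UHRF1 by 1.89 ± 0.08. CBX5, which encodes heterochromatin protein HP1-alpha, differed by -0.69 ± 0.06 and MORC2 by -1.24 ± 0.15. In the change of IP over input, 11 of the 18 fell (61.1%, beside 36.3% of all genes tested) and 1 rose (5.56%, beside 31.5%). The median change was -0.87, beside -0.19 over all genes.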

How the data were processed

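Per the file headers and the study's methods, the authors trimmed reads with Trim Galore 0.6.7, aligned them with STAR 2.7.10a and deposited featureCounts 2.0.2 counts per gene in 17 libraries, from poly(A) RNA amplified by a SMART-seq2 protocol. The methods and the exon positions point to hg19, although the labels also name a mouse build; how featureCounts treated strand and mates is not given in the sources used here. Among low counts above 0, the only ones checked, 81.3% to 95.9% per library were even, so 1 fragment may have been counted as 2. SD and SE values cover only the spread between these libraries, and the floors only the counts.

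Counts were tested with the edgeR 4.0.16 quasi-likelihood F test (R 4.3.3, TMM scaling, filterByExpr with a minimum count of 10, Benjamini-Hochberg adjustment over all genes tested), in separate fits of the 6 inputs, the 8 WT libraries, the 9 siTDP43 libraries and, for changes of enrichment, all 17 libraries. A call needed an adjusted p under 0.05, and in pull-downs also a fold above 2. CPM values used TMM factors over all libraries. A group without a count in any library is given as a bound against 3 counts per library, and a group with 1 to 3 counts in some library carries no bound. Exon composition, linker matches and recurring 50-base stretches were read from GRCh37 at the exon positions of the table, and gene types from GENCODE v44lift37. The script was tested on simulated data. Named genes are ZNF226, ZNF234 and the 5 with the highest FPKM in WT input. Per comparison, up to 3 largest rises and falls were added, among called genes whose counts average 50 or more. Between 2 groups, the libraries also had to be without overlap, a check not made for the changes of enrichment. Any 2 libraries of a group differed by more than sampling noise (chi-square per degree of freedom 3.26 to 9.43). Alternatives were DESeq2 1.42.0, limma 3.58.1 on log2(FPKM + 1), other scalings and filters, halved counts, removal of a GC trend, thinned WT libraries, a replicate block and leaving out each library. The members and lists were chosen with earlier results of these data known. Protein sequences were not used here.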

Additional observations from a re-analysis of the deposited data

Results flagged for a closer look

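Some named genes had IP enrichment in opposite directions in the 2 genotypes, each direction called and the change itself past the test of genotype by pull-down (edgeR, all 17 libraries). Over input this held for ZNF234, with a log2 change of -5.11 from 2.47 in WT, and for ZNF708, with a change of 3.23 from -2.37 in WT.

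Over IgG the change was at most -10.70 for ZNF234, at most -5.93 for ZNF616 and at most -5.08 for ZNF77, each with no count in WT IgG. It was at least 5.42 for ZNF805, 5.33 for ZNF227, 5.18 for ZNF708 and 4.13 for ZNF181, each with no count in siTDP43 IgG. Where every group had counts, ZNF653 changed by -4.66 and ZNF587 by 3.53. ZNF653 overlaps ECSIT, and ZNF587 shares 23.8% of its 50-base stretches. For ZNF350 and ZNF841 the fitted changes were -14.95 and -13.16, which depend on the prior count and are no bounds, since WT IgG held 2 counts of each gene in 1 library and siTDP43 IP none.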

How the results depend on the processing

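The counts of called genes stayed within 1.5 times, or the TARDBP difference kept its direction and call, in 407 of 424 recomputations, among them every one without 1 library. The exceptions lay with a stricter fold over IgG, with limma on log2(FPKM + 1) and with the filter at a mean of 50 counts, which tests fewer of them. Limma called 23 higher and 25 lower for WT IP over input, 47 and 23 for WT IP over IgG (25.3% higher, beside 22.5% of all genes, against 58.1% beside 35.2%), 50 lower for WT IgG over input, 13 higher for siTDP43 IP over input, 33 higher and 15 lower for siTDP43 IP over IgG (20.8% higher, beside 23.2%, against 47.8% beside 34.0%), and 82 lower for the change over IgG. It left 16 ac4C(+) genes in WT and 4 in siTDP43. The filter at 50 counts left 65 lower for WT IgG over input (49.6%, beside 32.0%) and 46 for siTDP43 IP over input (45.1%, beside 21.8%). It left 20 lower for siTDP43 IP over IgG (19.6%, beside 14.4%) and 58 for siTDP43 IgG over input (56.9%, beside 36.5%). For the change over input 60 were left (48.4%, beside 37.1%). A fold over IgG above 5 left 17 ac4C(+) genes in WT. Among single genes, the change of ZNF416 over input turned to -0.0555 under limma and the input difference of ZNF226 to -0.0463 with the GC trend removed. Scaling by total counts moved the all-gene median by over 0.1 in 6 comparisons, most for siTDP43 IgG over input, from -0.58 to -1.13, and removing the GC trend in 6, among them WT IP over IgG, from 0.29 to -0.17. The fitted median of the ZNF genes for siTDP43 IgG over input was -6.77 to -6.55 without any 1 of its IgG libraries, beside -4.39.

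The correlations of same-numbered deviations were -0.03 to 0.06, beside -0.06 to 0.03 between different numbers, so they showed no pairing of the samples. With 2 or 3 libraries per group they cannot exclude it. With the replicate number as a block (replicate block), the inputs gave 92 higher and 42 lower genes, and no count moved by over 1.5 times. Among the groups, siTDP43 IgG had the highest floor, with 3 counts standing for 1.13 CPM.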
